A study of Canis lupus familiaris with 16 samples.

Results

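Levels of 6 immediate-early genes, FOS, FOSB, EGR1, NR4A1, ZFP36 and GEM, were described in canine meningioma, a tumor that arises from the membranes covering the brain and spinal cord. These 6 of the 24580 genes in the deposited table were selected on measured values of the same libraries: each is in the study's list of genes with higher expression in the meningiomas than in control meninges. The comparison of meningiomas with controls is therefore given for them as a description and without a test. RNAseq after ribosomal RNA subtraction was performed on surgical biopsies of 13 dogs, of which the labels place 6 in grade I and 7 in grade II, and on leptomeninges of 3 healthy research beagles taken after euthanasia. The authors had sequenced further tumor samples and left them out, some for low mapping and some as outliers in early principal components analyses. Variation between the 13 tumors is thus that of a set trimmed partly on expression. Per the study's methods, 11 of the 13 tumors were formalin-fixed and paraffin-embedded, 2 were flash-frozen, and the 3 controls were flash-frozen. Storage differed with the group in all but these 2 tumors, and as libraries were not tied to tumors, storage and collection cannot be told apart from tumor against control in what follows. The table numbers its libraries 0 to 12 (meningioma) and 0 to 2 (control), and these numbers were not tied to grade, storage or dog.

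Immediate-early genes are transcribed within minutes of a stimulus, without new protein synthesis, because the factors that switch them on are already present in the cell and are activated by kinase cascades such as ERK and p38 and by calcium signals. Their RNAs are short-lived. Growth factors, stretch, hypoxia, injury and tissue handling can all induce them, and they are used in many tissues as a readout of recent signaling. FOS and FOSB encode subunits of the transcription factor AP-1, EGR1 a zinc finger transcription factor, NR4A1 an orphan nuclear receptor, ZFP36 a protein (tristetraprolin) that binds AU-rich elements and speeds the decay of such short-lived RNAs, and GEM a small GTP-binding protein that restrains calcium channels.

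Total fragments on genes ranged from 2138741 to 7358925 in the meningiomas and from 2269204 to 7054614 in the controls. Levels are given as FPKM, that is fragments scaled by transcript length and by the authors' factor for each library, so that genes of different length can be compared. Meningioma libraries 2 and 12 stood apart from all other libraries on the third principal component of all expressed genes (scores of -70.3 and -67.5, against -14.9 to 34.9), and results that rest on them are given with and without them.

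Both FOS family genes reached their highest levels in the same few meningiomas. FOS (ENSCAFG00000017040) had between 13.6 and 999.7 FPKM in the 13 meningiomas, with a median of 132.7. In the controls it had 18.2, 13.8 and 11.3 FPKM. Meningioma libraries 0, 2, 4 and 11 had between 763.3 and 999.7 FPKM, while libraries 3, 9, 10 and 12 had 22.0 FPKM or less and lay close to or within the range of the controls. FOS was above all 3 controls in 11 libraries and within their range in 2, so the groups overlapped. Its log2 fold change, from edgeR on fragment counts, was 4.57 (standard error 1.58). In library 11 it was the 70th most abundant gene of the table by FPKM, and in library 9 it was the 6604th. Its rank in the controls lay between 5403 and 7687.

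FOSB (ENSCAFG00000004443) had the widest range of the 6 genes. It had between 0.272 and 222.8 FPKM in the meningiomas, with a median of 7.66, and 0.984, 0.850 and 0.323 FPKM in the controls. The highest meningioma was 820.4-fold above the lowest, against 3.05-fold between the controls. Meningioma libraries 0, 1, 2, 4, 6 and 11 had at least 35.3 FPKM. Libraries 8, 9 and 10 were within the range of the controls and library 12 was below it. At this low end FOSB rested on few fragments: library 12 had 6 (95% exact Poisson interval 2.2 to 13.1) and the lowest control had 5 (1.62 to 11.7), so that the order of these libraries was not detectable at this depth. Such intervals cover counting error only. The log2 fold change was 5.99 (standard error 2.26), relative to controls with 23, 7 and 5 fragments. It was much smaller, 2.87, as a difference between the group means of log2(FPKM + 1), and 3.57 with a pseudocount of 0.1.

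EGR1 (ENSCAFG00000001254) had between 6.66 and 389.6 FPKM in the meningiomas, with a median of 33.6. In the controls it had 20.1, 11.02 and 9.86 FPKM. Library 0 was highest, libraries 2 and 11 followed at 282.2 and 285.7, and 5 of the 13 meningiomas were within the range of the controls or below it. The groups thus overlapped more than for FOS. The log2 fold change was 2.84 (standard error 1.35).

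NR4A1 (ENSCAFG00000007338) was the gene whose typical meningioma differed least from the controls. It had between 1.63 and 251.1 FPKM in the meningiomas, with a median of 6.18, and 5.04, 3.66 and 4.99 FPKM in the controls. Libraries 0 and 2 had 251.1 and 160.4 FPKM and the next highest, library 4, had 36.5, while libraries 3, 8 and 12 were below every control. The mean of 40.7 ± 76.2 FPKM (SD, n = 13) was 8.93-fold that of the controls, 4.56 ± 0.782 FPKM (SD, n = 3), whereas the median of the meningiomas was 1.36-fold the control mean. The log2 fold change was 3.17 (standard error 1.65), and 2.35 without library 0. It was 2.29 with DESeq2, which replaced the count of 1 library as an outlier.

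ZFP36 (ENSCAFG00000005530) was above the controls in more libraries than any other of the 6 genes. It had between 6.24 and 163.3 FPKM in the meningiomas, with a median of 30.5, and 11.4, 5.92 and 6.76 FPKM in the controls. All meningiomas except library 12 were above all controls, and libraries 11, 0 and 2 were highest at 163.3, 152.7 and 108.3 FPKM. The log2 fold change was 3.13 (standard error 1.00). For ZFP36 the table's fragments per FPKM, set against those of FOS in the same library, varied 1.70-fold between libraries, whereas this ratio was constant for the other 4 genes, so its FPKM depend in part on a transcript length that was estimated per library.

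GEM (ENSCAFG00000031938) had the narrowest range in the meningiomas. It had between 4.49 and 88.2 FPKM, with a median of 20.9, and the controls had 7.09, 2.79 and 1.95 FPKM. Libraries 0 and 1 were highest at 88.2 and 78.8 FPKM. Libraries 2, 3 and 7 were within the range of the controls, and the other 10 were above it. Its mean was 29.5 ± 27.3 FPKM (SD, n = 13), that of the controls was 3.95 ± 2.76 FPKM (SD, n = 3), and the log2 fold change was 2.89 (standard error 0.95). It was 3.66 without control library 0, in which GEM was highest of the controls.

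**Figure D1:**
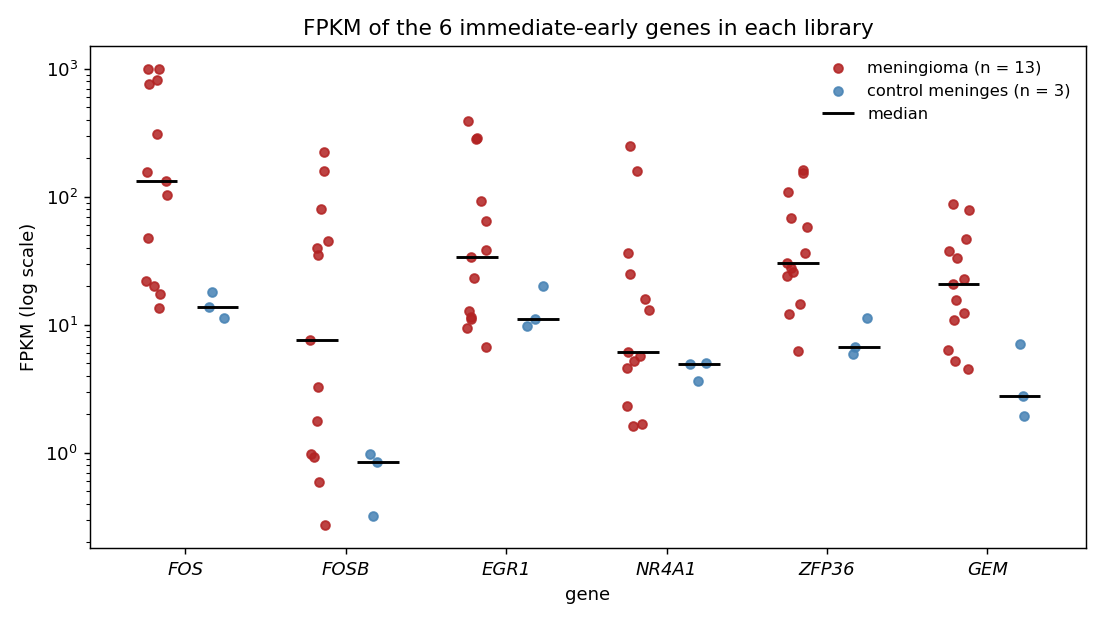
FPKM (log scale) of the 6 genes in each of the 13 meningioma and 3 control libraries, with bars at the median of each group. Points of the meningiomas spread from the level of the controls upward for every gene, and for FOSB, EGR1 and NR4A1 some also lie below all controls.

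For none of the 6 genes were all meningiomas above all controls, which was so in 1.92% of the 14345 genes tested (3.65% were below all controls in every meningioma). With edgeR's quasi-likelihood test and Benjamini-Hochberg adjustment, 0 of the 6 genes had an adjusted p under 0.05, as had 4.86% of the genes tested (1.31% higher, 3.55% lower). At an unadjusted p under 0.05, 5 of the 6 genes were higher (all but NR4A1), against a background of 9.81%. With DESeq2, the same 5 had an adjusted p under 0.05, against 4.63% of genes higher and 4.91% lower. Because these genes were selected on this contrast, these counts are no test of them. The median log2 fold change was 3.15 over the 6 genes and 0.06 over all genes tested. As a difference between the group means of log2(FPKM + 1), which gives less weight to the highest libraries and understates changes of low genes, it was 3.09 for FOS, 1.56 for EGR1, 1.26 for NR4A1, 2.13 for ZFP36 and 2.23 for GEM. Measured in tissue, a difference in the number of cells that express a gene and a difference in RNA per cell cannot be told apart.

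Markers of the tissue differed between the groups as well. PDPN (podoplanin), expressed by meningothelial cells and the only one of 8 listed meningioma markers with an identifier, had between 44.1 and 478.1 FPKM in the meningiomas and between 16.9 and 44.6 FPKM in the controls (edgeR log2 fold change 2.45, adjusted p = 0.0398). Its adjusted p was above 0.05 without any of the 3 controls (0.123 to 0.243) and without meningioma library 0 or 5 (0.0519 and 0.0518). Of 12 listed endothelial markers 9 had an identifier, and all 9 fell in the meningiomas (median log2 fold change -2.71). Their summed level was 37.5 to 177.4 FPKM against 434.1 to 699.1 FPKM. Of 8 listed mural cell markers 4 had an identifier, and these fell too (median -3.26), with 11.8 to 45.2 FPKM against 111.0 to 253.7 FPKM. Without control library 2, NOS3 alone of these 13 vessel markers had an adjusted p above 0.05 (0.0834). No vessel marker was at 0 in any library. Only genes in the study's lists of differing genes had an identifier, so that these markers were picked on these samples and their counts are not independent evidence of a direction. The part of vessel content in the levels of the immediate-early genes between the groups was not tested. Lists of leukocyte, neural, erythroid and heat shock genes had no member with an identifier and were not analysed here.

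Variation between meningiomas, which was not the criterion for the selection, was large for all 6 genes. Spread was taken on log2 CPM, that is fragments scaled to a library total adjusted by edgeR's TMM factors. The SD over the 13 meningiomas was 3.18 for FOSB, 2.38 for FOS, 2.28 for NR4A1, 2.04 for EGR1, 1.48 for ZFP36 and 1.40 for GEM. The median SD over all genes tested was 0.58. FOSB varied more than 99.9% of the genes tested, and even GEM varied more than 92.9% of them. Over the 3 controls the SD was between 0.24 for NR4A1 and 0.92 for GEM, and only GEM exceeded 90% of the genes tested there. A wide spread raises a mean in a few libraries, so the choice of genes with a high mean and the spread are not wholly independent.

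By library, the same tumors were high for nearly every gene. Libraries 0, 1, 4, 6 and 11 had all 6 genes above all controls, and library 2 had all but GEM. These 6 libraries were the 6 highest for FOS, for FOSB, for EGR1, for NR4A1 and for ZFP36, and 5 of them were among the 6 highest for GEM. At the other end, library 12 had only GEM above all controls and had FOSB, EGR1 and NR4A1 below all of them. Library 8 was mixed: FOS, ZFP36 and GEM were above all controls, while EGR1 and NR4A1 were below all of them. The share of all genes above or below all controls in a single library was not computed, so these counts have no background. The 6 genes were also selected for being higher. Together the 6 genes took between 0.0107% and 0.464% of a meningioma's fragments and between 0.00996% and 0.0174% of a control's.

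**Figure D2:**
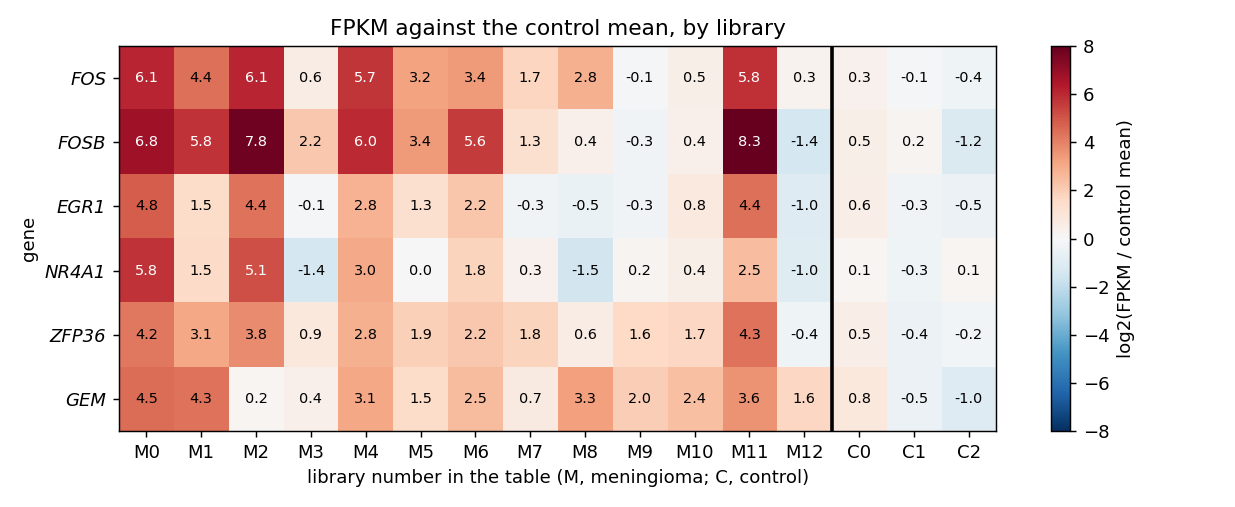
FPKM of each gene (vertical axis) in each library (horizontal axis; M, meningioma; C, control), as log2 of the ratio to the mean of the 3 controls, with the value printed in each cell. Columns M0, M2, M4 and M11 are high for FOS, FOSB, EGR1 and ZFP36, and M2 is near 0 for GEM.

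To ask whether the genes moved together between tumors, the 15 pairs were correlated over the 13 meningiomas on log2(FPKM + 1), with two-sided permutation tests of 100000 resamples and Benjamini-Hochberg adjustment over the pairs. The 10 pairs among FOS, FOSB, EGR1, NR4A1 and ZFP36 had a Pearson's r between 0.83 and 0.94 and a Spearman's rho between 0.79 and 0.95. All 10 passed the test. The permutation adjusted p was between 3.7e-05 and 4.2e-04 for r and between 7.5e-05 and 0.00292 for rho (the smallest unadjusted p that the resamples can give is 1e-05). However, the genes had been put together with earlier results of these libraries known, and were selected on a high mean in these same meningiomas. A few high libraries can raise the mean of several genes at once, so these p-values are not independent of the selection. FOSB and EGR1 had the highest r, at 0.94 (rho 0.94). FOS and NR4A1 had the lowest of the 10, at 0.83 (rho 0.79). Without the 2 libraries farthest from the median of the first gene, r was between 0.82 and 0.94, and without libraries 2 and 12 it was between 0.77 and 0.93. Each of the 10 pairs passed the test with any library left out. The largest gap between neighboring libraries was between 18.2% and 32.0% of a gene's log2(FPKM + 1) range and fell in different places: above it were 2 libraries for NR4A1 and GEM, 3 for EGR1, 4 for FOS, 6 for FOSB and 12 for ZFP36. For FOSB it lay between 7.66 and 35.3 FPKM, that is between the 6 libraries highest for the 5 genes and the other 7. Whether the libraries form separate clusters was not tested.

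**Figure D3:**
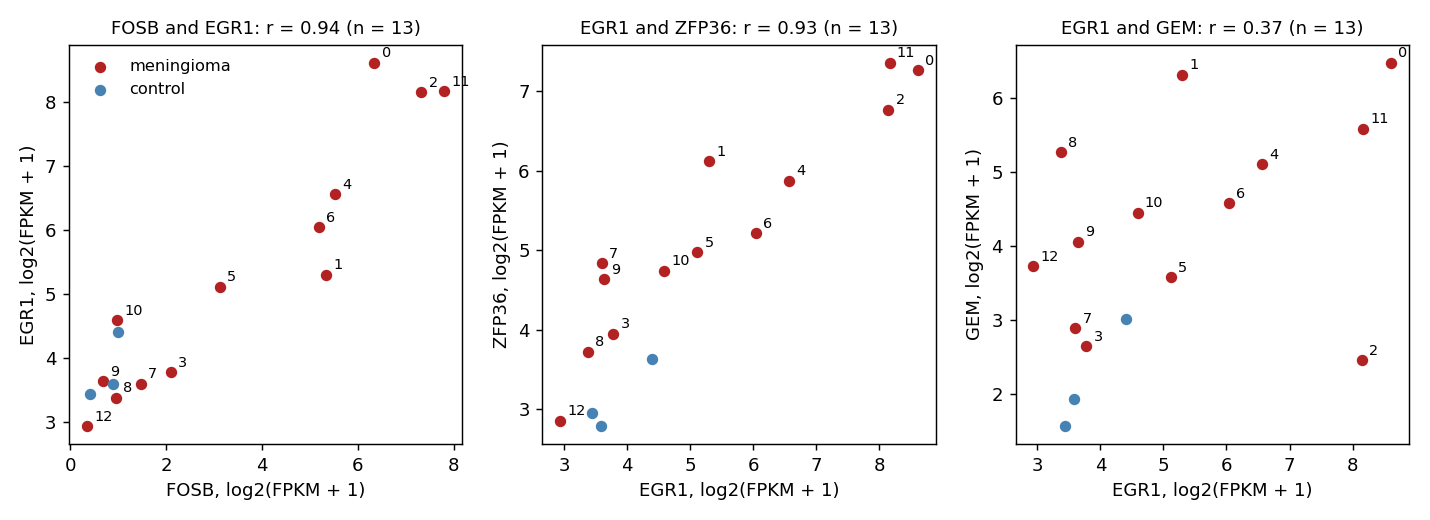
Levels of FOSB and EGR1, EGR1 and ZFP36, and EGR1 and GEM, as log2(FPKM + 1), in the 13 meningiomas (numbered by library) and 3 controls; r is over the meningiomas. The first 2 panels show a common rise from library 12 to libraries 0, 2 and 11, and in the panel of GEM library 2 lies at the lower right.

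The pairs of GEM had lower correlations over all 13 libraries. These 5 pairs had r between 0.31 and 0.45 and rho between 0.29 and 0.41, and 0 of them passed the permutation test (adjusted p 0.166 to 0.301 for r, 0.232 to 0.336 for rho; the unadjusted p for r was 0.122 or more). Library 2 had the highest FOS but the lowest GEM of all meningiomas (999.7 and 4.49 FPKM, from 7709 and 45 fragments). Without library 2, r with GEM was 0.75 for FOS, 0.66 for FOSB, 0.68 for EGR1, 0.70 for NR4A1 and 0.68 for ZFP36. All 5 then passed the permutation test (adjusted p 0.00960 to 0.0224), and by rho all but FOSB did (adjusted p 0.0567). With any other library left out, r lay between 0.036 (NR4A1, without library 0) and 0.54 (ZFP36, without library 8), and 0 pairs passed the test. These fits were added after the value of GEM in library 2 had been seen. Whether the correlations of GEM differ from those among the other genes was not tested.

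**Figure D4:**
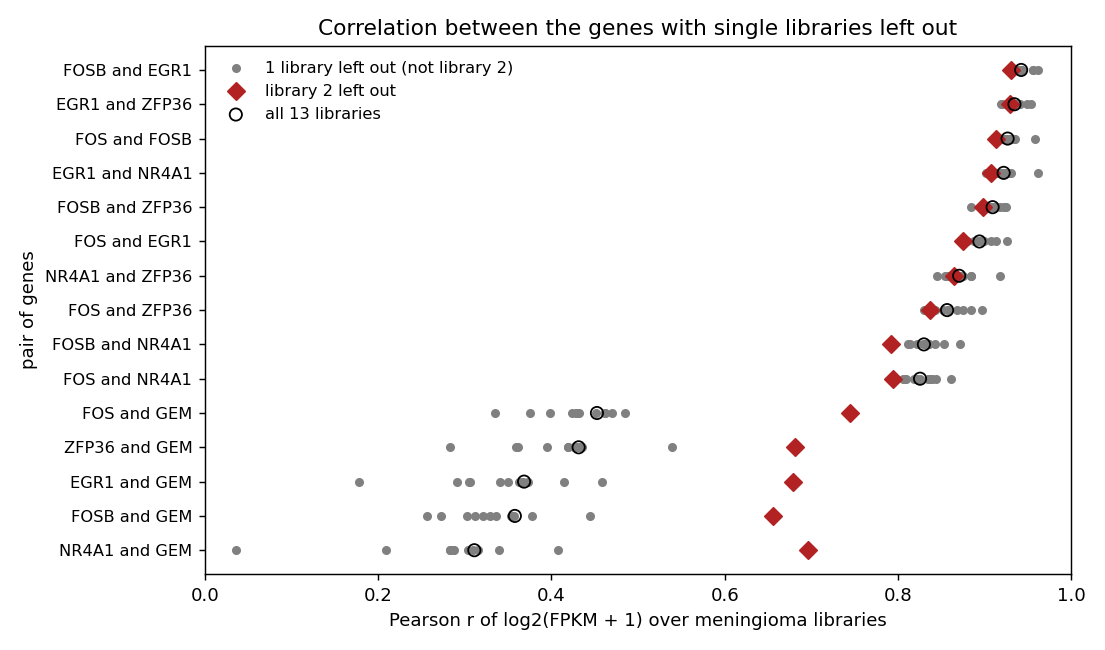
Pearson's r of log2(FPKM + 1) for each of the 15 pairs (vertical axis) over all 13 meningiomas (open circles), with library 2 left out (red diamonds) and with each other library left out (gray points). For the 10 pairs without GEM all points lie at 0.79 or above, and for the 5 pairs with GEM the red diamonds lie between 0.66 and 0.75, to the right of all other points.

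The levels in a meningioma did not follow its depth or its vessel content in a way that passed the test. Over 24 relations, r with total fragments was between -0.06 and 0.23, with the library's sum of FPKM between 0.09 and 0.50, with the endothelial marker sum between -0.58 and 0.05, and with the mural marker sum between -0.37 and 0.16. The strongest was that of GEM with the endothelial sum (r = -0.58, rho = -0.40; -0.60 without the 2 farthest libraries; permutation p = 0.0373, adjusted p = 0.889). The smallest adjusted p for rho was 0.978. These ranges of r moved without the 2 libraries farthest from the median of each measure. They were then -0.50 to 0.08 for total fragments and -0.21 to 0.17 for the sum of FPKM. For the endothelial sum the range was -0.60 to 0.14, and for the mural sum -0.003 to 0.45, without a test.

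In the order of median FPKM in the meningiomas, FOS came first, followed by EGR1, ZFP36, GEM, FOSB and NR4A1. This order, and with it the pairs tested below, was taken from the same values that the tests used. FOS was above EGR1 in 12 of 13 libraries, by 1.63 ± 1.05 on the log2(FPKM + 1) scale (mean ± SD; exact two-sided sign-flip permutation test over libraries, adjusted p = 0.00244 over the 5 neighboring pairs). None of the other neighbors passed this test after adjustment. ZFP36 was above GEM in 10 of 13 libraries (unadjusted sign-flip p = 0.0422). EGR1 and ZFP36 differed by 0.12 (exact permutation adjusted p = 0.785), ZFP36 and GEM by 0.86 (0.106), GEM and FOSB by 0.77 (0.489) and FOSB and NR4A1 by -0.10 (0.824).

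The proportions between the genes were not fixed, even where their levels rose together. FOSB was between 0.00905 (library 8) and 0.271 (library 11) of the FPKM of FOS in the meningiomas, and between 0.0287 and 0.0618 in the controls. EGR1 was between 0.0908 (library 8) and 1.15 (library 10) of FOS in the meningiomas and between 0.801 and 1.11 in the controls. For this ratio 11 of the 13 meningiomas were below every control. Both genes were selected on this contrast, in which FOS had the larger log2 fold change (4.57 against 2.84). Such counts were not computed for other pairs of genes, so this count has no background. NR4A1 was between 0.0877 (library 11) and 0.645 (library 0) of EGR1, which enclosed the 0.251 to 0.506 of the controls. Library 11, highest of all for FOSB and ZFP36, thus had little NR4A1 for its EGR1, whereas library 0 had the most. GEM was between 0.00449 (library 2) and 1.15 (library 9) of FOS, against 0.173 to 0.391 in the controls.

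Of a list of 67 immediate-early genes, 9 had an identifier, the 6 above and KLF5, MYC and THBS1, which the study also chose on these samples. KLF5, a zinc finger factor of proliferating epithelia, rose in the meningiomas, with 52.2 to 189.5 FPKM (median 101.4) against 8.56 to 13.7 FPKM (edgeR log2 fold change 3.23, standard error 0.37, adjusted p = 8.3e-05). All 13 meningiomas were above all controls. MYC, a growth regulator, had 13.7 to 110.6 FPKM (median 76.3) against 13.2 to 24.8 FPKM (log2 fold change 1.97, edgeR adjusted p = 0.0289), and its adjusted p was 0.0704, 0.147 and 0.198 without control library 0, 1 or 2. THBS1, a matrix glycoprotein that restrains vessel growth, fell, with 3.36 to 66.8 FPKM against 119.9 to 831.7 FPKM (log2 fold change -3.90, edgeR adjusted p = 4.1e-04). Between tumors, the r of these 3 genes with the mean z-score of the 6 genes over the 13 meningiomas was -0.07, 0.21 and 0.06. Each of the 6 had between 0.39 (GEM) and 0.94 (EGR1) with the mean of the other 5. Whether the 3 genes differ from the 6 in this was not tested. Their SD in log2 CPM was 0.47 for KLF5, 0.83 for MYC and 1.05 for THBS1.

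Among the 14339 other genes tested, of which 118 had a symbol, likeness to the 6 genes between meningiomas was ranked by r of log2 CPM with the mean z-score of the 6, as a description over 13 libraries that share depth and composition. NEAT1_1, a segment of the long noncoding RNA that builds nuclear paraspeckles, came first of those with a symbol, but rank 57 of all (r = 0.79, and 0.79 without libraries 2 and 12), with 1948 to 35958 FPKM. BMPR1B, a receptor for bone morphogenetic proteins, followed at 0.64, then ECE1, which activates endothelin, at 0.62, NEAT1_2, from the same noncoding RNA, at 0.60 and FBLN2, the matrix protein fibulin 2, at 0.57. CHGA, GAS6, NOL4, CCDC80 and FMN2 completed the 10, with r between 0.56 and 0.44. These 9 genes ranked only between 281 and 1339 of all. Without libraries 2 and 12, r of FBLN2 was 0.74, of CCDC80 0.74 and of FMN2 0.64, and of the other 6 between 0.42 and 0.57. ECE1, FBLN2, GAS6, CCDC80 and FMN2 were lower in the meningiomas than in the controls (log2 fold changes between -2.49 and -1.76), and the others were higher (1.70 to 3.22).

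For FOS alone the nearest named genes were BMPR1B (0.77), ECE1 (0.71) and NEAT1_1 (0.70), and for FOSB they were NEAT1_1 (0.70), ECE1 (0.67) and BMPR1B (0.65). For EGR1 they were NEAT1_1 (0.72), BMPR1B (0.54) and ECE1 (0.49), and for NR4A1 NEAT1_1 (0.60), PDPN (0.49) and CHGA (0.46). ZFP36 was nearest to NEAT1_1 (0.75), CHGA (0.65) and NEAT1_2 (0.62), and GEM to FBLN2 (0.66), NEAT1_1 (0.65) and the apolipoprotein gene APOE (0.60). Without libraries 2 and 12, r of GEM was 0.92 with NEAT1_1, 0.62 with FBLN2 and 0.63 with APOE, and for the other 5 genes these values lay between 0.37 and 0.77. In all, 42 genes had r of at least 0.8 with the 6 genes, and none of these had a symbol in the sources used here; 29 of them kept it without libraries 2 and 12. The nearest was ENSCAFG00000013049 (r = 0.94), with 0.118 to 30.4 FPKM in the meningiomas and 1.08 to 3.86 FPKM in the controls. Each of the 6 was also ranked by its r with the mean z-score of the other 5. Each had its own list of 14340 genes, without those 5. EGR1 (0.94) had rank 1, ZFP36 (0.93) rank 2, FOS (0.92) rank 3, FOSB (0.91) rank 4, NR4A1 (0.86) rank 12 and GEM (0.39) rank 1683. Genes other than the 6 thus ranked ahead of every member but EGR1.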

How the data were processed

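RNAseq libraries of 13 canine meningiomas and 3 control meninges were used. The authors trimmed the reads (cutadapt 1.8), removed ribosomal and small RNA reads, mapped the rest to CanFam3 with Ensembl annotation and strand information (TopHat2 2.0.13) and ran Cuffdiff 2.2.1, versions per the submitters' processing notes. The deposited estimated counts are fragments per gene and library, of which 1364 of 393280 were not whole and were rounded. The deposited FPKM are these fragments after the authors' scaling by library and transcript length. Symbols came from the study's lists, which pair 125 symbols with 124 identifiers.

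The 14345 genes that reached 10 fragments in 3 or more libraries were tested with edgeR 4.0.16 (TMM, quasi-likelihood, Benjamini-Hochberg) in R 4.3.3, all 16 libraries in the model without covariates. Standard errors are the log2 fold change over the root of F. Correlations and sign-flip tests used log2(FPKM + 1) in Python 3.11.15 (scipy 1.17.1, numpy 2.4.6), and matplotlib 3.10.9 drew the plots. Alternatives were DESeq2 1.42.0, its size factors, no filter, a pseudocount of 0.1, log2 CPM (prior count 2) in the correlations, libraries 2 and 12 left out, and each library left out. The fits were tested on simulated data.

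The 6 genes and all lists were chosen with earlier results of these data known. Named genes are the 6, other listed immediate-early genes and vessel or tumor markers with an identifier, the 10 genes with a symbol nearest to the mean of the 6, and the 3 nearest to each. NOS3 and ENSCAFG00000013049 were named after their values were seen. The tumors are separate dogs, as are the controls, and all p-values take the libraries as units. Since libraries were not tied to grade or storage, neither was a covariate. The edgeR and DESeq2 p-values therefore do not separate tumor against control from storage.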

Additional observations from a re-analysis of the deposited data

How the results depend on the processing

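Depth limits FOSB and NR4A1 at their low end, and 3 controls limit every comparison between groups. The number of genes with an adjusted p under 0.05 between the groups was 697 with edgeR and 1364 with DESeq2 (27.0% and 48.5% of them higher), and 169 to 350 with each control left out in turn (7.10% to 15.1% higher). It was 1036 without meningioma libraries 2 and 12 (34.2% higher). The log2 fold changes of the 6 genes kept their sign in all 54 alternatives. They moved by less than 1 SD of log2 CPM between meningiomas, but this SD is wide (3.18 for FOSB, 2.28 for NR4A1), so that the bound is weak. Their size was not stable: it moved the most for FOSB (5.99 to 2.87), and for NR4A1 from 3.17 to 1.26. The lowest came from the mean of log2(FPKM + 1). Of the correlations under an alternative, 243 kept their direction and side of the threshold, 11 newly passed it and 1 changed sign. Those that changed all involve GEM. Without libraries 2 and 12, r with GEM was 0.73 for FOS, 0.64 for FOSB, 0.66 for EGR1, 0.68 for NR4A1 and 0.69 for ZFP36, all past the threshold. Without the 2 libraries farthest from the median of the first gene it was 0.76 for FOS, where library 2 was among those left out. It was -0.013 for EGR1, where library 2 was kept and the cause was not tested. With each library left out in turn it ranged from 0.34 to 0.75 for FOS, 0.26 to 0.66 for FOSB, 0.18 to 0.68 for EGR1, 0.036 to 0.70 for NR4A1 and 0.28 to 0.68 for ZFP36. These leave-one-out correlations were added after seeing the data. The difference between FOSB and NR4A1 turned to 0.013 without libraries 2 and 12, and the other neighbors kept their order. Of the 10 named genes nearest to the 6, 8 to 10 were shared under each alternative. No paired analysis was possible because the tumors and the controls came from separate dogs, and numbers within a group pair no samples.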
